A study of Mus musculus with 6 samples.

Results

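The genes described here are the core apoptosis and death receptor genes: the BCL2 family, caspases with their activator APAF1, tumour necrosis factor (TNF) family death receptors with their adaptors, and the inhibitor of apoptosis (IAP) proteins. They were listed by gene symbol for their known roles in progenitor survival, and each was read from the array probe set that the annotation gives that single symbol, taking the one of highest mean signal where there were several. Of 34 listed genes 32 were measured, among 22180 genes with a single symbol. Bax and Ripk1 were not analysed here. Values are log2 signals, so a difference of 1 is 2-fold.

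RNA was profiled on 6 Affymetrix arrays from bone marrow megakaryoerythroid progenitors (MEP), cells that form platelets and red cells. The T-bet knockout group and the wild type group, both on the C57BL/6 strain, had 3 arrays each, described as separate mice. T-bet, the product of Tbx21, is a DNA-binding regulator of T helper and natural killer cells. The knockout allele, the age and sex of the mice and the antibodies of the flow cytometric sort were not stated in the sources used, and the labels mention no treatment of the mice.

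Apoptosis starts along either of 2 routes. In the mitochondrial route, BH3-only proteins sense stress and either block BCL2-type survival proteins or activate BAX and BAK1, which pierce the outer mitochondrial membrane; released cytochrome c then joins APAF1 to activate caspase 9. In the death receptor route, FAS, TNF receptors or the TRAIL receptor gather FADD and caspase 8 on the inner face of the cell membrane, with CFLAR as a brake. Red cell and platelet production both depend on this balance: BCL-XL, the long product of Bcl2l1, is known to keep maturing erythroid cells and platelets alive.

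Facts of the whole series limit what follows. Tbx21 itself read 6.41, 6.61 and 6.46 in knockout arrays 1 to 3 and 6.54, 6.62 and 6.59 in wild-type arrays 1 to 3, with overlapping groups (difference -0.09, SE 0.09), so its probe set gave no check of the genotype labels. Knockout arrays 1 and 2 and wild-type array 1 carried both Xist and Y-linked signal (Xist 11.79 to 11.83, Eif2s3y 8.39 to 8.86), knockout array 3 and wild-type array 3 carried Y-linked signal alone, and wild-type array 2 carried Xist alone. Xist marks female and Eif2s3y male cells, so 3 of the 6 arrays go against a description as single mice. The p-values below measure the spread between these arrays. Of 11 measured erythroid markers 0 lay in the dimmest 30% of probe sets, and Klf1, an erythroid transcription factor gene, read 10.48 to 10.75. That dim were 5 of 10 T and natural killer cell, 4 of 13 granulocyte and monocyte and 3 of 10 macrophage markers. So were 2 of 10 B cell, 1 of 9 stem cell and 0 of 9 megakaryocyte markers. Megakaryocyte marker means did not overlap, at 7.04 to 7.19 in knockout and 7.21 to 7.46 in wild-type arrays, with 8 of 9 markers below 0. P2rx1 (difference -0.57) and Itga2b (-0.34) had an unadjusted p under 0.05 in limma, and Pf4 (-0.48), Vwf (-0.19) and Gp6 (-0.115) were also lower. Treml1 (-0.04), Gp9 (-0.02), Gp5 (-0.01) and Ppbp (0.02) lay close to 0, so the lower means were not shared by all markers. B cell marker means, 6.66 to 7.24 and 6.41 to 6.85, overlapped, with 8 of 10 above 0, and the knockout mean was the higher one in each of the 3 same-numbered pairs. With the replicate number as a block 5 B cell markers (Cd79a, Ebf1, Igll1, Ighm and Blnk) had an unadjusted p under 0.05 in limma, and 0 passed the adjusted threshold. Stem cell markers had 8 of 9 differences below 0 (median -0.115) and macrophage markers 7 of 10 (median -0.105), and the means of both lists overlapped between groups. Erythroid markers had 9 of 11 differences above 0 (median 0.037), and their means overlapped too. In RNA of sorted pools, fewer cells of a type and less RNA per cell cannot be told apart.

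No gene of the death machinery was called different between genotypes. Of 32 measured genes 0 passed limma's adjusted p of 0.05, where 0 of all 41345 probe sets did (0.0%), and 0 had an unadjusted p under 0.05, where 3.13% of the 22180 genes did. The adjusted p was 1 for all 32. Without wild-type array 2 the unadjusted count was 4 (Bcl2l2, Hrk, Pmaip1 and Fas), where 2.72% of all genes passed. Without knockout array 1 it was 1 (Hrk), where 4.86% passed, and in neither fit did a member pass the adjusted threshold. Fas, the CD95 death receptor gene, had the largest difference, -0.26 (1.20-fold lower signal in the knockout), and Bcl2l11, the gene of the stress sensor BIM, had the largest positive one, 0.105. Differences were below 0 for 17 of the 32 and above 0 for 15, with a median of -0.01, against 51.8% below 0 and a median of -0.004 over all genes.

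The arrays also bounded how far these signals could differ. The 95% interval of the difference lay within 1.5-fold in either direction for all 32 genes, against 85.9% of all genes and 93.1% of genes outside the dimmest 30%. The widest interval on the low side belonged to Bbc3, the gene of the p53 target PUMA, and reached 0.67 times the wild-type signal. The one reaching furthest up belonged to Bcl2l11, at 1.33 times. This count fell to 26 with the class of Xist and Y-linked signal as a block, when Bcl2l2, Bok, Hrk, Pmaip1, Fas and Tnfrsf10b had wider intervals, and to 18 without the 3 arrays of mixed signal. Wild-type array 2 is alone in its class, so the class block takes it out of the estimate. The intervals are those of each gene taken alone and concern array signal, which may compress true RNA differences at low brightness, as for Hrk, Casp12 and Fas.

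**Figure D1:**
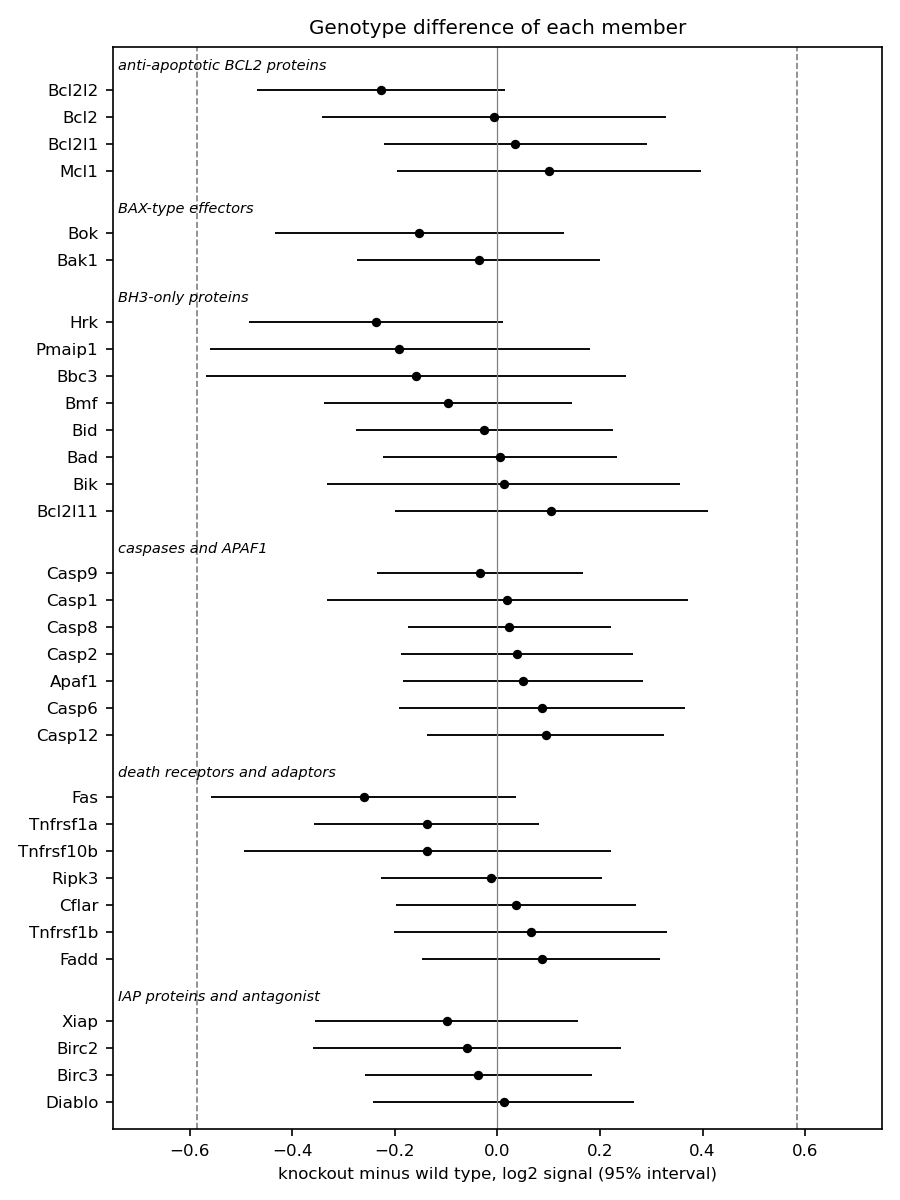
Difference in log2 signal, knockout minus wild type, for the 32 measured genes grouped by role; points are limma estimates, bars their 95% intervals, and dashed lines mark 1.5-fold. Every interval crosses 0 and stays between the dashed lines, with Fas furthest to the left at -0.26 and Bcl2l11 furthest to the right at 0.105.

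In 3 genes the knockout values all lay below the wild-type values: the survival gene Bcl2l2, the BH3-only gene Hrk and the TNF receptor gene Tnfrsf1a. That is 9.38% of the 32, against 5.18% of all genes. The opposite order occurred in 0 of 32, against 3.52% of all genes. Because T-bet binds DNA, the sequence upstream of these 3 genes is shown, taken from RefSeq (GRCm38.p6, plus strand, 5′ to 3′). It covers up to 250 bases before the promoter table's transcript start and stops at the first annotated base of the gene. Bcl2l2 is given at chr14:54883175-54883365, Hrk at chr5:118169514-118169763 and Tnfrsf1a at chr6:125349473-125349722. Capitals mark the T-box core GGTGTG, the GATA motif AGATAA or the ETS motif CCGGAAG, searched on both strands.
Bcl2l2: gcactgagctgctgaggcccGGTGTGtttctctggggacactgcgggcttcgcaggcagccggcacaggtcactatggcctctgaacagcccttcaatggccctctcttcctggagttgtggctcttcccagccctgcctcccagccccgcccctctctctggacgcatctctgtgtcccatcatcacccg
Hrk: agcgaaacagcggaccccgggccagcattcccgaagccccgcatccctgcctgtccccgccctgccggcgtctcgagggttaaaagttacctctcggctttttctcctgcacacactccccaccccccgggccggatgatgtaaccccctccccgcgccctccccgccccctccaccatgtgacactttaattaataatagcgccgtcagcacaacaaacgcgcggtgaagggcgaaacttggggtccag
Tnfrsf1a: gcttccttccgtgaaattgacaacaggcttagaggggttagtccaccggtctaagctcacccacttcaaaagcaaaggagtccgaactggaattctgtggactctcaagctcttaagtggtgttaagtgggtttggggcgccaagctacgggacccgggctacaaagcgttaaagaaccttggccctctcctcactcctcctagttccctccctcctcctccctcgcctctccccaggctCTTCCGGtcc
The Bcl2l2 sequence held the T-box core once, 230 bases before its transcript start, which lies past the end of the 191 bases shown. The Tnfrsf1a sequence held the ETS motif on the minus strand 10 bases before its transcript start, and the Hrk sequence held none of these motifs. In the full 250-base windows the T-box core was present in 6 of 43 promoters of the listed genes (14.0%), against 16.3% of all 32851 promoters. Those 6 belonged to Bbc3, Bcl2l1, Bcl2l2 and Bmf. The GATA motif was in 2 of 43 (4.65%, against 9.99%) and the ETS motif in 6 of 43 (14.0%, against 6.91%). The promoters of the listed genes were richer in G and C, with a median of 60.4% against 52.4% of all promoters, and these shares were not adjusted for it. The table had promoters for 31 of the 34 genes, and Bik, Pmaip1 and Tnfrsf10b had no entry. A match of letters is not a binding site.

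Among the anti-apoptotic BCL2 proteins, which hold BAX and BAK1 in check, Bcl2l2 stood furthest from 0. This gene of the survival protein BCL-W read 7.003, 7.012 and 6.997 in knockout and 7.289, 7.075 and 7.332 in wild-type arrays. The knockout values were nearly identical, and wild-type array 2 came closest to them. The difference was -0.23 (SE 0.10, 95% interval -0.47 to 0.01, limma unadjusted p = 0.0608). Within the arrays of mixed Xist and Y-linked signal (knockout 1 and 2, wild-type 1) it was -0.28. Between the arrays of Y-linked signal alone (knockout 3, wild-type 3) it was -0.33. Both values leave out wild-type array 2 and rest on a single wild-type array each.

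Mcl1, a short-lived survival protein needed by blood stem and progenitor cells, read 10.02, 10.28 and 10.42 in knockout and 10.07, 10.16 and 10.19 in wild-type arrays. Array 1 was lowest and array 3 highest in both groups, and the groups overlapped (difference 0.10, SE 0.12). Bcl2l1 read 6.77, 6.87 and 7.06 in knockout and 6.91, 6.80 and 6.89 in wild-type arrays, and its knockout values enclosed all wild-type values (difference 0.04, 95% interval -0.22 to 0.29). Bcl2, the founding survival gene of the family, read 8.98, 8.60 and 8.88 in knockout and 8.95, 8.63 and 8.90 in wild-type arrays. Each knockout array of Bcl2 lay close to the wild-type array of the same number, with array 2 low in both groups, and the difference was -0.01 (SE 0.14). Bcl2 and Mcl1 each had a second, lower probe set. That of Bcl2 differed by 0.08 (SE 0.09), and that of Mcl1 by 0.002 (SE 0.25), with wild-type values spread from 5.96 to 6.97.

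Both measured BAX-type effectors, the proteins that open the mitochondrial membrane, had differences below 0. Bok, which acts largely outside BCL2 control, read 7.36, 7.06 and 7.13 in knockout and 7.30, 7.24 and 7.46 in wild-type arrays. Knockout array 1 lay among the wild-type values, so the groups overlapped (difference -0.15, SE 0.12). Bak1 read 9.30, 9.40 and 9.56 in knockout and 9.46, 9.47 and 9.44 in wild-type arrays, with wild-type arrays tightly grouped inside the knockout range (difference -0.04, SE 0.10).

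**Figure D2:**
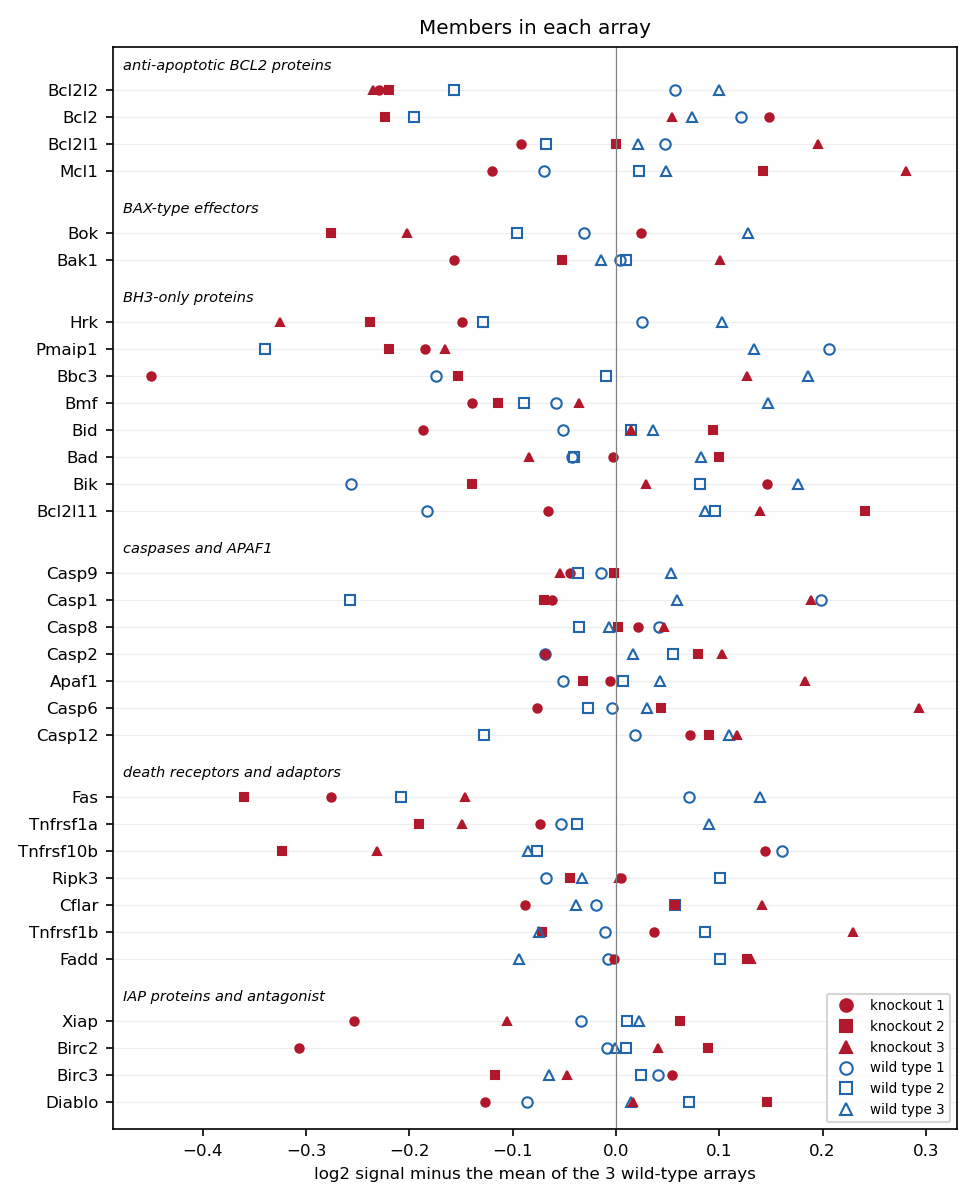
Log2 signal of each measured gene in each array minus the mean of its 3 wild-type arrays; filled red symbols are knockout and open blue symbols wild-type arrays, and circles, squares and triangles are replicates 1, 2 and 3. Red and blue symbols interleave in 29 of the 32 genes; in Bcl2l2, Hrk and Tnfrsf1a all red symbols lie to the left of the blue ones.

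The BH3-only genes, sensors that trigger the mitochondrial route, had 5 of 8 differences below 0 and a median of -0.06. Hrk, the gene of Harakiri, read 5.177, 5.088 and 5.001 in knockout and 5.351, 5.197 and 5.429 in wild-type arrays, and its highest knockout array lay 0.02 below its lowest wild-type array. The difference was -0.24 (SE 0.10, 95% interval -0.48 to 0.01, limma unadjusted p = 0.0582), at a dim signal. Within the mixed arrays it was -0.22 and between the arrays of Y-linked signal alone -0.43. Both again leave out wild-type array 2, the lowest wild-type value of Hrk.

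The p53 target genes Pmaip1 (NOXA) and Bbc3 (PUMA) overlapped between groups. Pmaip1 read 6.20, 6.16 and 6.22 in knockout and 6.59, 6.04 and 6.52 in wild-type arrays, where the lowest of all values was wild-type array 2 (difference -0.19, SE 0.15). The block for the Xist and Y-linked class takes that array out of the estimate. With it the Pmaip1 difference was -0.36 (limma unadjusted p = 0.0256, adjusted p = 0.914), and leaving that array out without a block also gave -0.36. Bbc3 read 6.13, 6.43 and 6.71 in knockout and 6.41, 6.57 and 6.77 in wild-type arrays, with array 1 lowest and array 3 highest in both groups (difference -0.16, SE 0.17). Its range over the 6 arrays, 0.64, was the widest of the 32 genes.

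Bmf, whose product is released from the cytoskeleton on stress, read 6.04, 6.07 and 6.15 in knockout and 6.12, 6.09 and 6.33 in wild-type arrays, with wild-type array 3 above the rest (difference -0.10, SE 0.10). Bcl2l11, known for removing surplus blood cells, read 8.45, 8.76 and 8.65 in knockout and 8.33, 8.61 and 8.60 in wild-type arrays, with array 1 lowest and array 2 highest in both groups. Bid, which links caspase 8 to mitochondria, differed by -0.03 (SE 0.10). Bad, which growth factor signals keep inactive, differed by 0.005 (SE 0.10) and Bik by 0.01 (SE 0.14).

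The caspases and APAF1 had small differences, mostly of one sign. Of 7 genes 6 had a difference above 0, all between 0.02 and 0.09, where 51.8% of all genes were below 0. Casp9, the initiator of the mitochondrial route, was at -0.03 (SE 0.08). Each of the 7 differences was smaller than its SE. Without knockout array 3, Apaf1 (-0.018), Casp6 (-0.016) and Casp1 (-0.066) fell below 0, while Casp2, Casp8 and Casp12 stayed above. Apaf1, the scaffold of the apoptosome, read 8.88, 8.85 and 9.07 in knockout and 8.83, 8.89 and 8.93 in wild-type arrays, with knockout array 3 highest (difference 0.05, SE 0.10). Casp6, an executioner caspase, read 8.78, 8.90 and 9.15 in knockout and 8.85, 8.83 and 8.89 in wild-type arrays. Knockout array 3 again stood above the other 5 arrays (difference 0.09, SE 0.12).

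Casp8, the initiator of the death receptor route, had the narrowest range of the 32 genes: its 6 values lay within 0.08 of each other, at 11.23, 11.21 and 11.26 in knockout and 11.25, 11.18 and 11.21 in wild-type arrays. The 95% interval of its difference was -0.17 to 0.22. Casp2, a caspase linked to p53 and cell division errors, read 10.14, 10.29 and 10.31 in knockout and 10.14, 10.27 and 10.23 in wild-type arrays, with array 1 at the same value in both groups (difference 0.04, 95% interval -0.19 to 0.26).

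The inflammatory caspases also overlapped between groups. Casp12 read 4.23, 4.25 and 4.27 in knockout and 4.17, 4.03 and 4.26 in wild-type arrays at a dim signal, with wild-type array 2 lowest (difference 0.09, SE 0.10). Casp1, which matures interleukin 1 beta, ranged from 6.68 to 6.94 in knockout and from 6.49 to 6.95 in wild-type arrays (difference 0.02, SE 0.15). Casp1 and Casp12 lie near each other on chromosome 9 in RefSeq, with 1 protein-coding gene between them.

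The 3 death receptors measured among the members, Fas, Tnfrsf1a and Tnfrsf10b, had differences below 0. Fas read 4.73, 4.65 and 4.86 in knockout and 5.08, 4.80 and 5.15 in wild-type arrays at a dim signal. Knockout arrays 1 and 2 lay below all wild-type arrays and knockout array 3 above wild-type array 2 only. The difference was -0.26 (SE 0.12, 95% interval -0.56 to 0.04, limma unadjusted p = 0.0761). With the replicate number as a block the difference was the same with an unadjusted p of 0.0402 in limma (adjusted p = 0.766). The block for the Xist and Y-linked class takes wild-type array 2 out of the estimate. With that class block the difference was -0.34 (limma unadjusted p = 0.0323, adjusted p = 0.914).

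Tnfrsf1a, the gene of TNF receptor 1, which carries a death domain, read 7.91, 7.79 and 7.83 in knockout and 7.93, 7.94 and 8.07 in wild-type arrays. Knockout array 1 lay 0.02 below wild-type array 1, so the groups were barely apart (difference -0.14, SE 0.09, limma unadjusted p = 0.178). Within the mixed arrays it was -0.08 and between the arrays of Y-linked signal alone -0.24, both without wild-type array 2. Tnfrsf10b, the mouse TRAIL receptor gene, read 6.77, 6.30 and 6.39 in knockout and 6.78, 6.55 and 6.54 in wild-type arrays, with array 1 highest in both groups (difference -0.14, SE 0.15). Tnfrsf1b, the gene of TNF receptor 2, which lacks a death domain, differed by 0.07 (SE 0.11). The knockout arrays also had the lower megakaryocyte marker means given above. Bcl2l2, Hrk, Tnfrsf1a and Fas were picked for being low in the knockout, so this shared direction follows from that choice. Stem cell and macrophage markers were mostly below 0, and B cell and erythroid markers mostly above 0. The part of those cells in the differences of Bcl2l2, Hrk, Tnfrsf1a and Fas was not tested.

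The adaptors behind the receptors were close to 0. Fadd, the bridge from FAS to caspase 8, differed by 0.09 (SE 0.10) and Cflar, the caspase 8 decoy FLIP, by 0.04 (SE 0.10). Cflar and Casp8 are adjacent protein-coding genes on chromosome 1 in RefSeq. Ripk3, the kinase of necroptosis, ranged from 8.72 to 8.77 in knockout and from 8.70 to 8.87 in wild-type arrays (difference -0.01, SE 0.09).

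The IAP proteins block caspases or TNF receptor killing, and all 3 IAP genes had small differences below 0. Xiap, the direct caspase inhibitor, read 8.59, 8.91 and 8.74 in knockout and 8.81, 8.86 and 8.87 in wild-type arrays, with array 1 lowest in both groups (difference -0.10, SE 0.11). Birc2, the gene of the ubiquitin ligase cIAP1, read 8.44, 8.84 and 8.79 in knockout and 8.74, 8.76 and 8.74 in wild-type arrays. Knockout array 1 was low and the other arrays lay close together (difference -0.06, SE 0.13). Birc3, the gene of cIAP2 and the neighbour of Birc2 on chromosome 9, read 7.64, 7.47 and 7.54 in knockout and 7.63, 7.61 and 7.53 in wild-type arrays (difference -0.04, SE 0.09). Diablo, the mitochondrial protein that displaces IAPs from caspases, differed by 0.01 (SE 0.11).

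**Figure D3:**
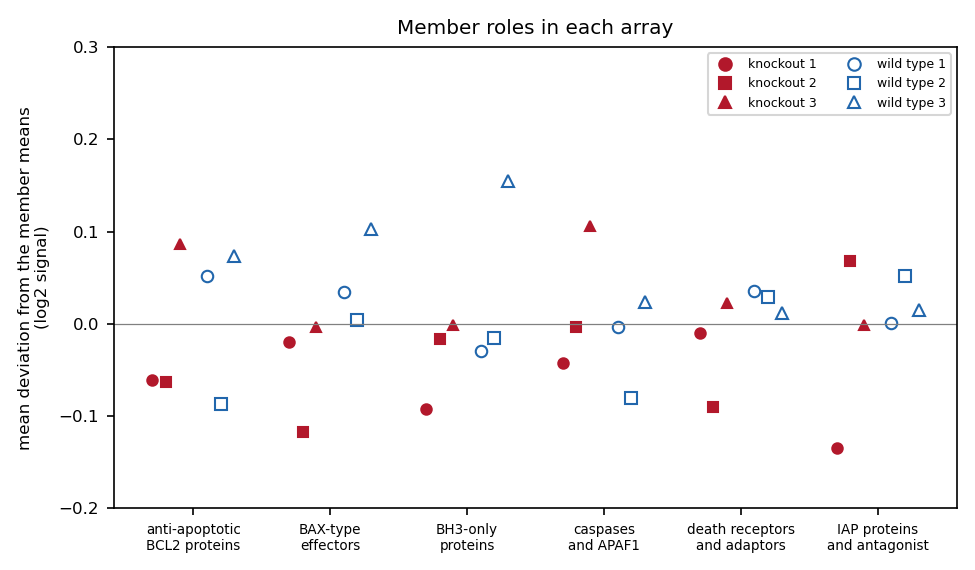
Mean deviation, in log2 signal, of the genes of each role from their own means over the 6 arrays; filled red symbols are knockout and open blue symbols wild-type arrays, with circles, squares and triangles for replicates 1, 2 and 3. The BAX-type effectors are the role whose knockout arrays (-0.12 to -0.004) all lie below the wild-type arrays (0.004 to 0.10), and it holds 2 genes.

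Variation between arrays followed the replicate number about as often as in other genes. The lowest array had the same number in both groups for 14 of 32 genes (43.8%) and the highest for 13 (40.6%), close to the 44.4% and 39.4% of all genes. Array 1 was the shared lowest in 8 genes (Bbc3, Bcl2l11, Bid, Birc2, Casp2, Diablo, Mcl1 and Xiap), array 2 in 6 (Bcl2, Bok, Casp1, Casp8, Fas and Pmaip1) and array 3 in 0. Array 3 was the shared highest in 7. Of all 22180 genes, arrays 1, 2 and 3 were the shared lowest in 5099, 2664 and 2074, and array 3 the shared highest in 2886. The mean deviation of the 32 genes was -0.06, -0.03 and 0.04 in knockout and 0.01, -0.02 and 0.06 in wild-type arrays. The median SD within a group was 0.11 for these genes and 0.14 for all genes. Outside the dimmest 30% it was 0.11 for the members and 0.12 for all genes.

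**Figure D4:**
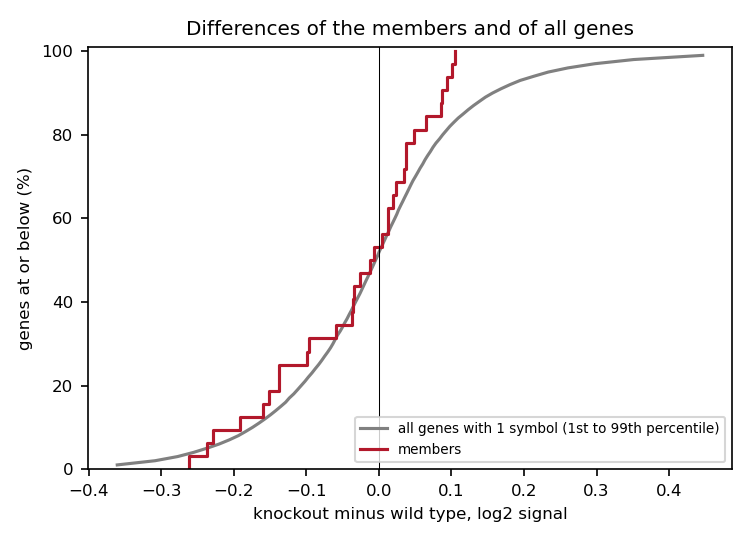
Cumulative share of genes by their difference in log2 signal, knockout minus wild type, for the 32 measured genes (red steps) and all 22180 genes with a single symbol (grey, 1st to 99th percentile). The red steps run from -0.26 to 0.105, inside the range of the grey curve, and both cross 0 a little above 50%.

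The rest of the pathway was read from lists of 80 measured genes, of which 0 passed limma's adjusted p of 0.05 and 1 had an unadjusted p under 0.05 (3.13% of all genes did). Knockout values lay wholly below the wild-type values in 6 of the 80 (7.5%, against 5.18% of all genes) and wholly above in 1 (1.25%, against 3.52%). The 1 gene with a small p was Tnfrsf21, the gene of death receptor 6, which read 8.43, 8.44 and 8.56 in knockout and 8.69, 8.67 and 8.74 in wild-type arrays (difference -0.22, SE 0.09, limma unadjusted p = 0.0421, adjusted p = 1). Of 26 other death receptor and necroptosis genes, 12 were below 0 and 14 above, with a median of 0.003. Tnf, the ligand of Tnfrsf1a and Tnfrsf1b, read 5.93, 5.93 and 5.92 in knockout and 6.08, 6.03 and 6.16 in wild-type arrays, again without overlap (difference -0.17, SE 0.09), and the death receptor 3 gene Tnfrsf25 differed by -0.20 (SE 0.13).

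Of 25 other mitochondrial pathway genes, 16 were below 0 and 9 above, with a median of -0.008. Bcap31, an endoplasmic reticulum protein cut by caspase 8, read 10.29, 10.45 and 10.26 in knockout and 10.50, 10.58 and 10.53 in wild-type arrays (difference -0.20, SE 0.10). Cycs, the gene of cytochrome c, which activates APAF1, read 11.62, 11.63 and 11.60 in knockout and 11.69, 11.80 and 11.70 in wild-type arrays (difference -0.12, SE 0.09), and Bnip1 differed by 0.11 (SE 0.09). The groups did not overlap in these 3 genes.

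Inflammasome and pyroptosis genes, the partners of caspase 1, had 8 of 12 differences below 0 and a median of -0.05. Nlrp3, an inflammasome sensor, differed by -0.33 (SE 0.17), and the flagellin-sensing Naip5 and the related Naip2 by 0.17 (SE 0.12) and -0.12 (SE 0.12); Nlrp3, Naip5 and Naip2 overlapped between groups. Among 17 p53 and FOXO survival regulators 11 were below 0, with a median of -0.015. Trp73, a p53 relative, read 6.17, 6.46 and 6.39 in knockout and 6.51, 6.55 and 6.78 in wild-type arrays (difference -0.28, SE 0.12), without overlap. The decoy TRAIL receptor gene Tnfrsf23 and the p53 target Zmat3 differed by -0.26 (SE 0.19) and -0.09 (SE 0.08).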

How the data were processed

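RNA of sorted MEP was hybridised to 1 Affymetrix array per sample, 3 T-bet knockout and 3 wild type. The deposited table gives a log2 signal for each of 41345 probe sets, and the submitters' processing notes name Affymetrix Expression Console 1.4.1.46 as the authors' software. The base of the log was inferred from the values, and the sources used here name neither background correction nor normalization. Without detection calls, signal could not be set against background, and dim means the 30% of probe sets lowest in mean. The number of arrays limits the precision.

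Gene symbols came from the array annotation (23521 probe sets with 1 symbol, 1814 with several, 16010 not listed). Groups were compared over all probe sets by lmFit and eBayes of limma 3.58.1 (R 4.3.3), without a replicate block, with Benjamini-Hochberg adjustment and a threshold of 0.05. SE and 95% intervals are limma's. The fit was tested on simulated data with independent noise and planted changes larger than any difference of the members. That test does not bear on differences as small as theirs. The members and lists were chosen with earlier results of these data known. Every array value is given for members with an unadjusted p under 0.05, without group overlap or among the 3 of smallest p in a role, and for some others chosen after their values were seen. Of each other list the 3 genes of smallest p are named.

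Same-numbered arrays of the 2 groups deviated together over 1 probe set per gene (r = 0.285, 0.116 and 0.115 for numbers 1 to 3). Over all probe sets number 2 gave 0.057. The replicate block takes the numbers as pairs, although the labels do not say what a number shares. The pairs of number 1 and of number 3 also shared their class of Xist and Y-linked signal.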

Additional observations from a re-analysis of the deposited data

How the results depend on the processing

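In none of 15 other fits, nor in one without the 3 arrays of mixed Xist and Y-linked signal, added after seeing the data, did a member or another pathway gene pass limma's adjusted p of 0.05, and the smallest adjusted p of a member over the 15 was 0.704. Of all probe sets, median centring of the arrays called 1, weighting the arrays called 1, and leave-one-out fits called 0 to 2 (2 where knockout array 3 was omitted). Members with an unadjusted p under 0.05 numbered 2 (Bcl2l2 and Hrk) after a further quantile normalization (3.5% of all genes), with probe sets of 1 gene symbol only (4.42%) and with the mean of all probe sets of a gene (4.49%). There was 1 with array weights (Hrk, 4.88% of all genes), 1 without the dimmest 30% (Bcl2l2, 2.6%), 1 with the replicate block (Fas, 3.63%), 3 with a block for the Xist and Y-linked class (Bcl2l2, Pmaip1 and Fas, 3.07%) and 0 to 4 when 1 array was left out (1.84% to 4.86%). The count of members with a 95% interval within 1.5-fold, a measure chosen after seeing the data, was 18 without the 3 mixed arrays, a fit of 1 knockout against 2 wild-type arrays that assumes the lone array varies like the others; with 1 array left out it was 28 to 31. The median difference of the members lay between -0.035 and 0.016 throughout. The replicate block changed no adjusted call. The block for the Xist and Y-linked class takes wild-type array 2, alone in its class, out of the estimate. For Bcl2l2, Hrk, Pmaip1 and Fas it gave -0.304, -0.308, -0.362 and -0.344. Leaving that array out gave -0.307, -0.301, -0.361 and -0.365, so these 2 fits are not separate evidence.

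Of the 15 fits, 5 left the estimates as they were and 10 moved them, that with the mean of all probe sets for Bcl2 and Mcl1 alone. The direction held in the 10 for 17 members, of which 13 moved by over 1.5 times when 1 array was left out, such as Bbc3 (-0.302 to -0.013), Bcl2l11 (0.014 to 0.191), Mcl1 (0.011 to 0.211), Pmaip1 (-0.361 to -0.088) and Tnfrsf10b (-0.277 to -0.044). Bcl2l2 (-0.307 to -0.178), Hrk (-0.301 to -0.185), Tnfrsf1a (-0.17 to -0.093) and Fas (-0.365 to -0.192) did not. The other 15 members changed sign in at least 1 fit. Leaving out 1 array gave -0.018 to 0.089 for Apaf1, -0.043 to 0.049 for Bad, -0.104 to 0.025 for Bak1, -0.105 to 0.101 for Bcl2, -0.046 to 0.098 for Bcl2l1, -0.086 to 0.055 for Bid, -0.116 to 0.1 for Bik and -0.133 to 0.065 for Birc2. It gave -0.082 to 0.003 for Birc3, -0.109 to 0.118 for Casp1, -0.016 to 0.168 for Casp6, -0.015 to 0.099 for Cflar, -0.055 to 0.081 for Diablo, -0.046 to 0.038 for Ripk3 and -0.018 to 0.133 for Tnfrsf1b. Quantile normalization turned Bad to -0.021 and Bik to -0.008, array weights Bid to 0.025, Bik to -0.08 and Birc2 to 0.013, and the sex-linked block Bad to -0.019, Casp1 to -0.095 and Ripk3 to 0.043. The mean of both Bcl2 probe sets gave 0.036. The cause was not tested.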
